A study of Homo sapiens with 8 samples.

Results

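Among the open chromatin regions that U2OS cells kept in all 4 conditions studied, 1359 had a stronger peak after Orc6 knockdown than in control cells, both without and with H2O2. They were selected on the authors' peak signal, the strength value given to each peak. Peaks of the 4 deposited lists on chromosomes 1 to 22 and X were merged where they overlapped or touched, which gave 129052 merged regions. A peak was present in every list in 80119 of them (62.1%), here called shared regions. Each peak was ranked by its signal within its own list from 0 (weakest) to 100 (strongest), and a region took the rank of its best peak. The rank in siOrc6 cells minus the rank in siGl3 cells is its gain, in points. Members are the shared regions with a gain of at least 15 points in both treatments, 1.7% of all shared regions.

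U2OS is an established human osteosarcoma line. ATAC-seq measures accessible chromatin by letting a transposase cut and tag open DNA. Cells received siRNA against Orc6 (siOrc6) or the control siRNA siGl3 for 72 h. All were arrested by double thymidine block and released for 3 h, so that they were in early S phase, and were then left untreated or given 5 mM H2O2 for 30 min. The 8 libraries formed 4 conditions of 2 libraries, and the labels number them by batch without saying whether they came from separate cultures. Each condition came as 1 peak list for both of its libraries, going by the list's name. The files analysed here hold no value per library and no read count, so depth, replicate spread and knockdown strength are unknown and no test was made. Without H2O2 the siGl3 list held 115292 peaks and the siOrc6 list 109304, and the others held 103674 in siGl3 cells with H2O2 and 97816 in siOrc6 cells with H2O2. A gain is therefore a move within lists of unequal length, not a measured change in accessibility. Of 23 osteoblast lineage genes, 20 had a shared region in the gene or within 5 kb, as had 9 of 11 epithelial, 11 of 12 neuronal and 7 of 12 blood cell markers, so this count does not identify the cell type.

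Orc6 is a subunit of the origin recognition complex, which marks replication origins and loads the replicative helicase. It also has roles in cytokinesis and in DNA mismatch repair. H2O2 oxidises DNA bases, among other damage. Accessible regions are promoters, enhancers and other sites where nucleosomes are displaced, and a strong ATAC-seq peak usually marks a regulatory element that is open in many of the cells.

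The promoters below belong to some of the members named in the results. Ordered by the smaller gain, SMAD7, SMAD3 and LTBP2 came at places 501, 804 and 1135 of the 1359 members, and other promoter members before them are not shown. SMAD9, SMAD7, SMAD3 and LTBP2 are genes of TGF-beta and BMP signalling or its matrix-bound reservoir family, and DGKA, LMO1, ZNF708 and PAX7 are among the first at a promoter when ordered by the smaller gain. Each sequence is the RefSeq window of assembly GRCh38.p14 from 250 bases before to 50 bases after a gene start, 5′ to 3′ on the gene's strand. Capitals mark matches, on either strand, to any of 11 motifs: AP-1 (TGANTCA), CRE (TGACGTCA), the NRF2 core (TGACNNNGC), TEAD (GGAATG), RUNX (TGTGGTT), the CCAAT box (CCAAT), the GC box (GGGCGG), the TATA box (TATAAA), the E-box (CACGTG), ETS (CCGGAAG) and NRF1 (GCGCATGCG). Matches of different motifs may overlap or touch.
SMAD9, chr13:36920189-36920488, minus strand: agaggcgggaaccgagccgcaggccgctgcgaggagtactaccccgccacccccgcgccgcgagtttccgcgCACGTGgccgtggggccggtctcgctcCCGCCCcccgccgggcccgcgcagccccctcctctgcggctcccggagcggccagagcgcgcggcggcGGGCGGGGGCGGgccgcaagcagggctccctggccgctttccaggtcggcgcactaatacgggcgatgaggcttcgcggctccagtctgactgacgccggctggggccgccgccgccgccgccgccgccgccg
SMAD7, chr18:48949284-48949583, minus strand: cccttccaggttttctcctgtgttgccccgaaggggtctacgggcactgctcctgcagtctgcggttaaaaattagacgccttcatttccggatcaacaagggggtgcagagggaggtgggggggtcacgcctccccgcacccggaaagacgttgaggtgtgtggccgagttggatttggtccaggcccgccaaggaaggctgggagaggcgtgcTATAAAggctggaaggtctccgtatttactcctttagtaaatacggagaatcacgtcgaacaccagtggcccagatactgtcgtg
SMAD3, chr15:67098429-67098728, plus strand: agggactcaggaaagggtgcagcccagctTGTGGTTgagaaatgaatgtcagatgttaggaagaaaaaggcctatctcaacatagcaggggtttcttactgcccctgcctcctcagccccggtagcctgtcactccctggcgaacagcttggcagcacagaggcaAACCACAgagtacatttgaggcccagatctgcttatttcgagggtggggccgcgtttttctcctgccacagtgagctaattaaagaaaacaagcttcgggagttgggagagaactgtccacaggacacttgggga
LTBP2, chr14:74612188-74612487, minus strand: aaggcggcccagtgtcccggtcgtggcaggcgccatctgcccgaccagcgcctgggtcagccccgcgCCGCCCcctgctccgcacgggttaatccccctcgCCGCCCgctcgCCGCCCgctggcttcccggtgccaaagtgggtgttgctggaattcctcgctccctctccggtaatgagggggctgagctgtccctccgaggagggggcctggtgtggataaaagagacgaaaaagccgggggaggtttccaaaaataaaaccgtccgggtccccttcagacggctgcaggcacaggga
DGKA, chr12:55931813-55932112, plus strand: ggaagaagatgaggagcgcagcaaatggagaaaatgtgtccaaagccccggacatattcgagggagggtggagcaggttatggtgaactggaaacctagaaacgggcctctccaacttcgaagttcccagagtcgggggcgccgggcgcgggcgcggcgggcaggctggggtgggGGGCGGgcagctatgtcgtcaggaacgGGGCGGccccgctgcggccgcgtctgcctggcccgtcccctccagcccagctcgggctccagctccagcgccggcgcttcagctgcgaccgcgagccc
LMO1, chr11:8268738-8269037, minus strand: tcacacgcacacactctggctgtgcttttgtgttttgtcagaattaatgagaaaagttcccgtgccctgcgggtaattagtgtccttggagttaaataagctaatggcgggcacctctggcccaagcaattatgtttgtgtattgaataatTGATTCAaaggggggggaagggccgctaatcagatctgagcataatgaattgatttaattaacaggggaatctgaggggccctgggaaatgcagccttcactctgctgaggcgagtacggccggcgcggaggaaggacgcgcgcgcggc
ZNF708, chr19:21329361-21329660, minus strand: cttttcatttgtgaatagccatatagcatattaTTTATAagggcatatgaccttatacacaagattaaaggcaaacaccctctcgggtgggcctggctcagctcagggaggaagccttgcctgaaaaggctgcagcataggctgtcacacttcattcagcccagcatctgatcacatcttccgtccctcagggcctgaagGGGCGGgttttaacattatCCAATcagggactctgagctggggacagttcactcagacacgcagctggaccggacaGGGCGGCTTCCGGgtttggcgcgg
PAX7, chr1:18630596-18630895, plus strand: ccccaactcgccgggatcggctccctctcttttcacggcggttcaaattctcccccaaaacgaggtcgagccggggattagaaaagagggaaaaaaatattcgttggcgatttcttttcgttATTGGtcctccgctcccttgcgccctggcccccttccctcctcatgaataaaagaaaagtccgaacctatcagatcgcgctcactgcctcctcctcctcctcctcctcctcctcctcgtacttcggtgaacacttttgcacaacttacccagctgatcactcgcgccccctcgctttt

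SMAD9 and LTBP2 held GC boxes, and SMAD9 also an E-box. The SMAD7 window held a TATA box. The SMAD3 window, at a start inside the gene, held RUNX matches on both strands. The LMO1 window held an AP-1 match. The ZNF708 window held a TATA box, a CCAAT box, GC boxes and an ETS match that touches a GC box. The AP-1 match and this TATA box lay outside the members, which ended at chr11:8268755 and chr19:21329535. The LMO1 member and the PAX7 member, which began at chr1:18630882, reached only the gene-side edge of their windows. A match is a description of the letters and no evidence of binding. The highest point (summit) of a peak is given here in bases from the start, negative before it. The summit of the SMAD3 member lay at -108 or -107 in all 4 lists, and that of the ZNF708 member between -20 and 7. The SMAD9 member covered the whole window, but its summit lay inside the gene at 843 to 866 in 3 lists, and at -126 in siGl3 cells with H2O2. In SMAD7 the summit differed between lists: it lay at -4 in untreated siGl3, -648 in untreated siOrc6, 556 in siGl3 with H2O2 and 479 in siOrc6 with H2O2.

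The members were weak peaks in control cells and medium ones after Orc6 knockdown. Without H2O2 their median rank was 30.3 in siGl3 and 55.2 in siOrc6 cells, and with H2O2 it was 19.3 and 45.7. All shared regions had medians of 64.5, 62.7, 60.3 and 58.4 in the same order. In untreated siGl3 cells 1153 members (84.8%) ranked below 50, against 517 (38.0%) in untreated siOrc6 cells. The median gain was 21.7 points untreated and 23.1 points with H2O2, and 556 members gained at least 20 points in both treatments. These values follow from the selection and are given as a description.

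**Figure D1:**
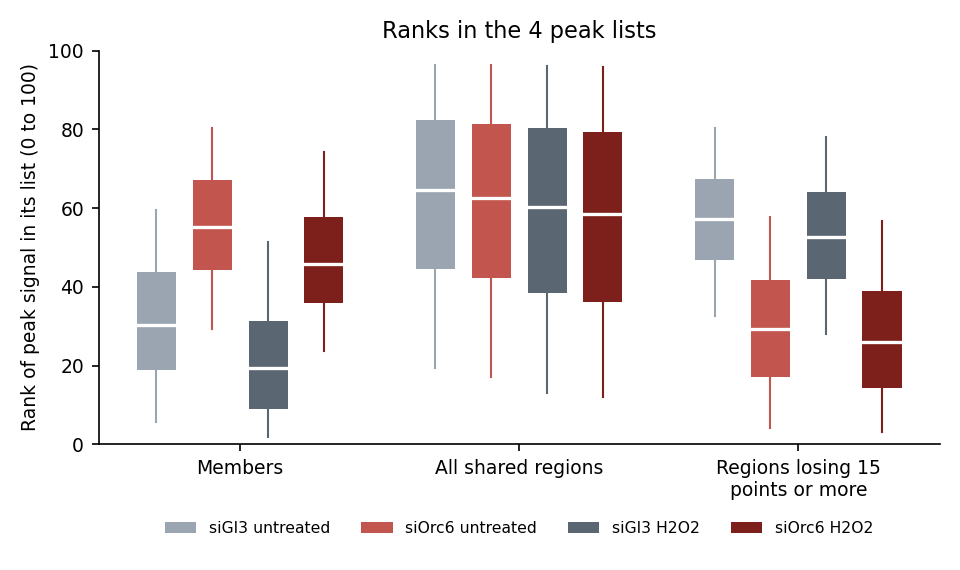
Rank of the best peak (vertical axis, 0 to 100) in each of the 4 lists for the 1359 members, the 80119 shared regions and the 3866 shared regions that lost at least 15 points in both treatments. Boxes span the middle 50% of regions with the median as a white line, and thin lines run from the 5% to the 95% quantile. Members have medians of 30.3 and 19.3 in the siGl3 lists and 55.2 and 45.7 in the siOrc6 lists.

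A gain of at least 15 points was found at 4490 shared regions untreated and at 4480 with H2O2, and the members are 30.3% of each. Of the regions that gained untreated, 3423 (76.2%) had some gain with H2O2, against 43.1% of all shared regions. A gain in one treatment with a loss of at least 15 points in the other was found at 107 regions (gain untreated) and 90 regions (gain with H2O2). Losses of at least 15 points in both treatments were more common than gains, at 3866 shared regions (4.83%). The size of this imbalance depends on the ranking: with ranks among shared regions only, 3258 lost and 2027 gained. Just inside the threshold, the last member lies 922 kb from TLE4, a transcriptional corepressor gene, and had ranks of 45.0 and 60 untreated and of 4.49 and 52.0 with H2O2, siGl3 before siOrc6. Members near DCBLD2 and DUSP26 were next. Just outside, a region in GPR39 had ranks of 27.6 and 52.8 untreated and 10.4 and 25.4 with H2O2, and regions near NTM and in SLC14A2 were also just short of 15 points.

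**Figure D2:**
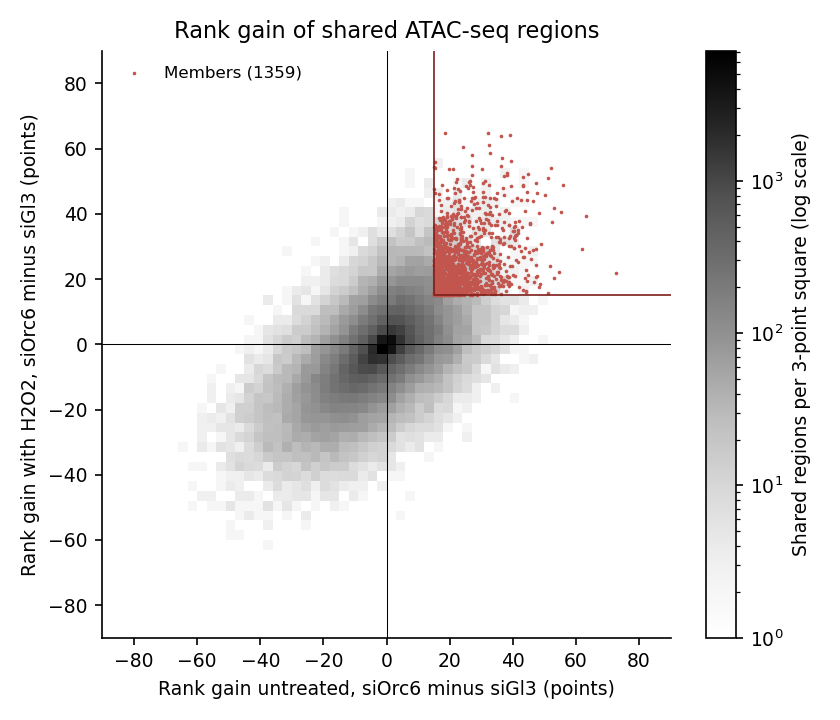
Gain of each shared region untreated (horizontal axis, points) against its gain with H2O2 (vertical axis, points). Grey squares give the number of shared regions on a log scale, red points are the 1359 members, and the red lines mark 15 points. The cloud runs from losses in both treatments to gains in both, with 107 and 90 regions past 15 points in opposite directions.

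The peaks at members were also wider after knockdown. The best peak was wider in siOrc6 than in siGl3 cells at 1284 members (94.5%) untreated and at 1290 (94.9%) with H2O2, against 55.4% and 56.4% of all shared regions. Its median width at members was 364 bp (siGl3) and 594 bp (siOrc6) untreated, and 310 bp and 496 bp with H2O2. In untreated siGl3 cells 162 members (11.9%) were split into several peaks, against 32 (2.35%) in untreated siOrc6 cells. For all shared regions it was 5.21% and 3.7%. The highest point stayed close: siOrc6 and siGl3 summits lay a median of 12 bp apart untreated and 17 bp apart with H2O2. For all shared regions these medians were smaller, at 9 and 10 bp. The merged member had a median width of 630 bp, against 708 bp for all shared regions and 577 bp for those that lost rank in both treatments. Width and signal belong to the same peak call, so width is not a separate measurement of the gain. By the authors' −log10 p-value in place of peak signal, 748 members (55.0%) still gained at least 15 points in both treatments and 1308 had some gain in both.

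For each treatment the authors also deposited a list of regions with more accessibility after Orc6 knockdown (a higher list) and one with less (a lower list), with no fold or p-value. These lists rest on the contrast that chose the members, so the overlap is a description. The untreated higher list covered 794 members (58.4%, with 6.58% of all shared regions called), and the H2O2 higher list covered 201 (14.8%, with 0.695% of all shared regions called). Both lists held 199 members, out of 436 that both held among all 80119 shared regions. In neither were 563 members (41.4%), against 96.6% of the 30153 shared regions with a gain or loss under 5 points in both treatments. The untreated lower list held 1 member (2.78% of shared regions called), 1.17 kb from MALT1, a paracaspase gene of NF-kappa-B signalling, with ranks of 20.4 and 36.4 untreated and 23.6 and 49.3 with H2O2. The H2O2 lower list (0.429% of shared regions called) held 0 of 1359 members, which allows a share of up to 0.221% by counting error. The share in the higher lists went up with the smaller of a member's gains. It was 50.2% untreated and 8.59% with H2O2 for the 803 members with 15 to 20 points, and 94.7% and 57.9% for the 19 members with 40 points or more.

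**Figure D3:**
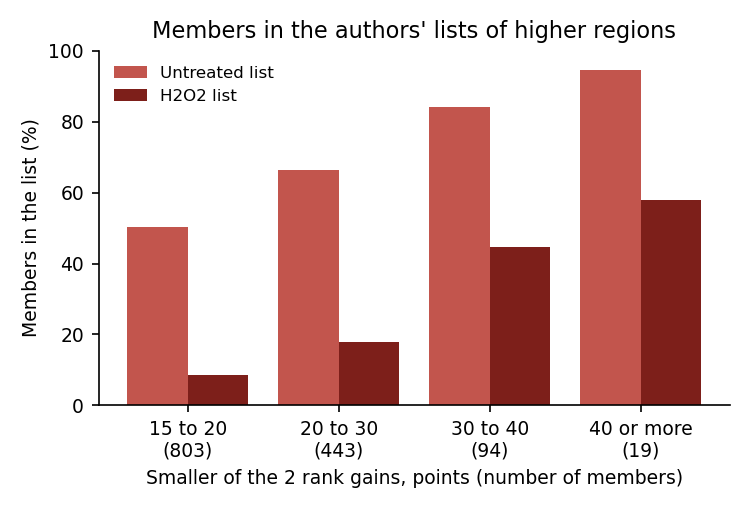
Share of members (vertical axis, percent) that overlap the authors' untreated and H2O2 lists of higher regions, by the smaller of the 2 gains (horizontal axis, points, with the number of members). Bars go from 50.2% to 94.7% for the untreated list and from 8.59% to 57.9% for the H2O2 list.

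The member with the largest smaller gain, 52.0 points, was a 2183 bp region at chr7:44804628-44806810, 1.51 kb from PPIA, which encodes the prolyl isomerase cyclophilin A. Its ranks were 18.2 in siGl3 and 70.2 in siOrc6 cells untreated, and 11.1 and 65.1 with H2O2. The second lay inside SUMF1, the gene of the enzyme that activates sulfatases, at chr3:4052216-4053235, with ranks of 22.4 and 73.6 untreated and 15.4 and 66.3 with H2O2. The third was 31.8 kb from CCT8L2, and the fourth 32.4 kb from OSTC, which encodes a subunit of the oligosaccharyltransferase. The region near OSTC was almost the weakest peak of its list in siGl3 cells with H2O2, at a rank of 0.675, and ranked 50.0 in siOrc6 cells with H2O2. Further members in this order were nearest to BUB3 (a spindle checkpoint gene, 99.6 kb away), SCN7A (a sodium channel gene, 172 kb), MACC1 (23.9 kb) and SMC2 (a condensin subunit, 138 kb). The tenth lay at an end of the zinc finger gene ZNF480, with ranks of 9.56 and 56.1 untreated and 7.91 and 51.9 with H2O2. Of the members just named, only the region in SUMF1 and the one in ZNF480 touched a protein-coding gene. In each of them, both siOrc6 ranks were above both siGl3 ranks.

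The members were not mostly promoters. A promoter window of a protein-coding gene was overlapped by 76 of 1288 members on the chromosomes with promoter windows (all used here but chromosome 8), or 5.9% (95% Wilson interval 4.74 to 7.32%). The share was 13.2% for all shared regions and 0.972% for the regions that lost rank in both treatments. Within 1 kb of either end of a protein-coding gene lay 164 members (12.1%, 10.4 to 13.9%), against 17.5% of all shared regions. With the mean rank of a region's peaks in place of the best, the set grew to 1700 regions, of which 20.2% lay at gene ends, above the 17.5%. These intervals cover counting error only and treat regions as independent. Outside genes and their ends lay 708 members (52.1%), against 44.8% of shared regions, and 487 (35.8%) lay inside a gene away from its ends. The median distance to the nearest protein-coding start with a promoter window was 49.8 kb for members and 37.2 kb for shared regions, without chromosome 8. Such starts were given for 15811 of 19970 protein-coding genes, so some distances are too long. In 1 Mb stretches with fewer than 5 protein-coding genes lay 40.1% of members and 30.6% of shared regions.

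Shared regions at promoters had a median rank of 88.4 in untreated siGl3 cells, and those away from promoters 60.8, while the rule takes regions of low siGl3 rank. Positions were therefore also compared at the same rank in untreated siGl3 cells. In the band from 0 to 20, 7.02% of the 376 members overlapped a promoter, against 4.27% of the other shared regions. From 20 to 40 it was 5.89% of members and 3.37% of others, and from 40 to 60 it was 4.49% and 4.28%. In the band from 60 to 80, with 57 members, the order was the opposite, at 7.41% and 8.94%. Gene ends followed the same order, with 13.8% of members and 10.3% of others in the lowest band. Members were also wider than the others of their band, with medians of 458 and 314 bp, 610 and 390 bp, and 770 and 515 bp in the 3 lower bands. A region's width spans its peaks in all 4 lists, siOrc6 included, so this difference is tied to the rule. At the same rank in untreated siOrc6 cells the order depended on the band. From 20 to 40, 8.94% of 246 members and 2.33% of others overlapped a promoter, and from 40 to 60 it was 5.07% of 565 members and 3.6% of others. From 60 to 80 it was 5.57% of 473 members and 8.73% of others, and from 80 to 100 it was 4.55% of 70 members and 35.5% of others. In these 4 bands the median widths of members and others were close. They were 390 and 402 bp, 558 and 529 bp, 768 and 773 bp, and 1312 and 1343 bp.

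**Figure D4:**
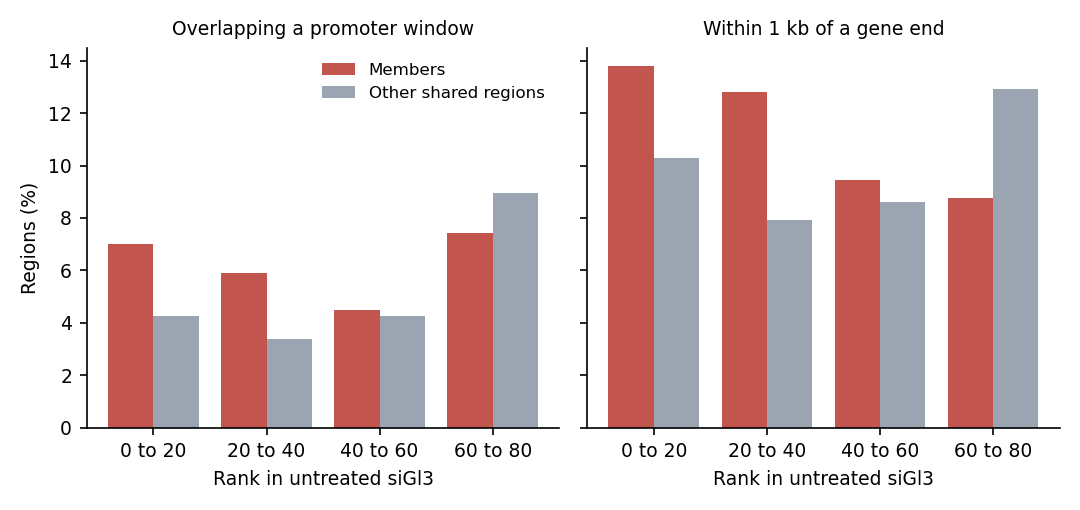
Share of regions (vertical axis, percent) that overlap a promoter window (left) or lie within 1 kb of a protein-coding gene end (right), by rank in untreated siGl3 cells (horizontal axis). Red bars are members and grey bars the other shared regions. Members are above the others in the 3 lower bands (7.02% and 4.27% at promoters in the lowest) and below them from 60 to 80.

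At promoters, the members covered the windows of 80 protein-coding genes, of 10401 with a shared region there (0.769%). SMAD9, a receptor-regulated SMAD of the BMP branch, came first among promoter members when ordered by the smaller of the 2 gains, with ranks of 23.1 and 60.5 untreated and 30.5 and 71.5 with H2O2 (siGl3 before siOrc6). Its peak signals were 374 and 1228 untreated and 456 and 1772 with H2O2. SMAD7, the inhibitory SMAD, ranked 6.09 and 53.4 untreated and 34.1 and 54.7 with H2O2. SMAD3, the receptor-regulated SMAD of the TGF-beta branch, ranked 49.2 and 69.2 untreated and 47.6 and 65.5 with H2O2. LTBP2, a matrix protein of the latent TGF-beta binding protein family, had the strongest of these peaks, at 61.4 and 84.8 untreated and 66.1 and 82.1 with H2O2. In all 4 genes both siOrc6 lists ranked the region above both siGl3 lists. The untreated higher list held the regions of SMAD9 and SMAD3, and neither list held those of SMAD7 and LTBP2. By −log10 p the gains untreated and with H2O2 were 40.3 and 16.3 points at SMAD9 and 11.7 and 18.9 at SMAD7. They were 11.2 and 28.9 at SMAD3, but only 0.677 and 7.41 at LTBP2. The LTBP2 region held 2 peaks in both siGl3 lists and 1 in both siOrc6 lists.

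The list of 27 genes of TGF-beta ligands, receptors and feedback had 9 members among 194 shared regions in the genes and 5 kb on each side (4.64%, with 1.7% over all shared regions). This list, like the other gene lists, was fixed with earlier results of these data known, so its share is a description. It also had 10 regions that lost rank in both treatments (5.15%, with 4.83% over all). The members lay at 7 genes. Among ligands, TGFB2 held a member with ranks of 41.1 and 68.0 untreated and 37.5 and 54.7 with H2O2. Among receptors, ACVR1, a type I receptor of BMPs and activins, held one at 28.3 and 55.2 untreated and 23.9 and 50.4 with H2O2. SKI, a corepressor of SMADs, had one at its gene end at 21.9 and 54.4 untreated and 11.7 and 35.9 with H2O2. LDLRAD4, a membrane protein that dampens TGF-beta signalling, held 3, of which those at chr18:13219628-13221136 and chr18:13221804-13224051 lie close together. SMAD9 is not in the list. Also outside it, and named after their values were seen, the BMP family genes BMP5 (16.3 and 40.8, then 22 and 45.8) and GDF10 (22.7 and 39.1, then 19.5 and 46.7) had members at their promoters, with the untreated pair of ranks first.

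Other genes with members at their promoters had varied roles. DGKA encodes a diacylglycerol kinase, and its region ranked 22.5 and 65.3 untreated and 39.1 and 75.1 with H2O2. MTMR11, a myotubularin-related gene, was at 35.3 and 76.4 untreated and 45.2 and 78.7 with H2O2. LMO1, a transcriptional cofactor known as an oncogene in leukaemia and neuroblastoma, went from among the weakest peaks, 2.28 in untreated siGl3 cells, to 33.5 in untreated siOrc6 cells, and had 15.8 and 56.1 with H2O2. PAX7, a regulator of muscle stem cells, was at 28.9 and 55.7 untreated and 31.2 and 60.2 with H2O2. ICA1 and MRAP2, an accessory protein of melanocortin receptors, ranked 6.88 and 4.41 in untreated siGl3 cells and 39.3 and 34.4 in untreated siOrc6 cells. Within 1 kb of a gene end but with no promoter overlap found, the first after ZNF480 by the smaller gain were at these genes. They were TMEM233, RAPGEF4, CCDC86, the neighbours COPS5 and CSPP1, and PRKAG2. COPS5 and CSPP1 are on chromosome 8, where no promoter windows were available. The region at TMEM233 ranked 41.5 and 82.3 untreated and 46.9 and 84.3 with H2O2, and that at COPS5 and CSPP1 ranked 4.17 and 39.6 untreated and 2.0 and 34.9 with H2O2.

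Many zinc finger genes encode KRAB repressors of transposable elements. Of 375 genes with a symbol of ZNF and a number and a shared region at a promoter, 5 had a member there (1.33%, with 0.769% over all genes). ZNF708 ranked 23.7 and 52.2 untreated and 14.4 and 46.2 with H2O2. ZNF793 ranked 34.5 and 67.4 untreated and 44.2 and 71.5 with H2O2, and ZNF814 ranked 4.72 and 31.3 untreated and 11.9 and 43.3 with H2O2. ZNF726 and ZNF91 were the other two. All 5 genes are on chromosome 19, but how many of the 375 genes are there was not counted. Of all shared regions on chromosome 19, 59 of 3001 were members (1.97%, with 1.7% over all chromosomes).

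**Figure D5:**
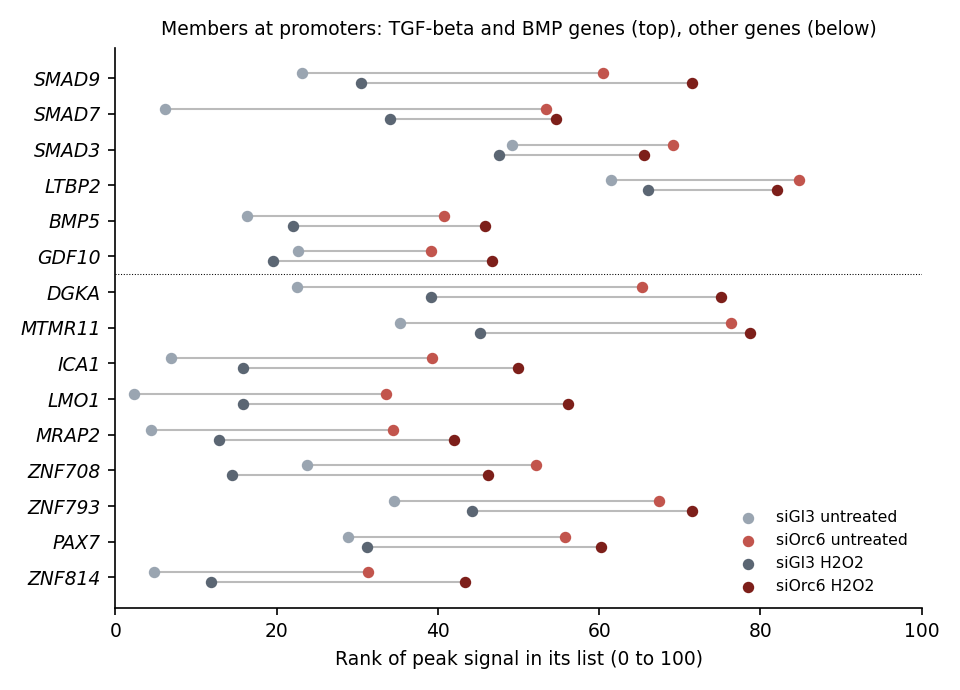
Rank of the best peak (horizontal axis, 0 to 100) in the 4 lists for members at the promoters of 15 genes. Each gene has an upper line for untreated cells and a lower line for H2O2, from the siGl3 point to the siOrc6 point. SMAD7 goes from 6.09 to 53.4 untreated and from 34.1 to 54.7 with H2O2, and LTBP2 has the strongest peaks, at 84.8 and 82.1 in the siOrc6 lists.

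The letters of the member promoters were set beside those of all promoters with a shared region, which are mostly far stronger peaks. The median rank in untreated siGl3 cells was 28.0 for members at promoters and 88.4 for all shared regions there. Letters were not compared at the same rank, so a difference cannot be told apart from one of peak strength. Median GC content was 60.2% in the windows of the 80 genes, 66.0% in those of all 10401 genes with a shared region there and 62.7% in the windows of all 15811 protein-coding genes given. These shares use 1 window per gene. The GC box was in 55.0% of member promoters, 72.4% of shared ones and 57.4% of all. The CCAAT box was in 26.2%, 36.0% and 36.0%. RUNX was in 6 member promoters (7.5%), against 2.92% of shared ones and 3.66% of all, and the E-box in 13.8%, 9.92% and 8.54%. AP-1 was in 6.25%, 5.17% and 5.97%. The CRE was in 0 of 80, which allows a share of up to 3.75%, against 3.26% of shared promoters. With 80 promoters a few genes decide each share. Sequences of members outside these windows were not analysed here.

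Inside genes, the largest number of members in a gene and 5 kb on each side was 3, reached by 6 genes. A member was found at 760 of the 16555 protein-coding genes with a shared region (4.59%), and 44 had several. SUMF1 had 3 among 10 shared regions, with gains from 15.3 to 51.2 points untreated. SLC30A8, the zinc transporter of insulin granules, had 3 among 7, and LRMDA, a gene of melanocyte differentiation, 3 among 44. AFF3, a nuclear protein linked to transcription elongation, had 3 among 29, and FNDC1 3 among 6. LDLRAD4 had 3 among 31. Its strongest member, at chr18:13221804-13224051, ranked 75.3 and 93.8 untreated and 62.4 and 79.6 with H2O2, and both higher lists held it. ZNF420 came next with 2 among 3 shared regions, and their gains with H2O2 were 54.7 and 64.2 points. In WNT5A, a ligand of non-canonical Wnt signalling, 2 of 5 shared regions were members, at ranks of 6.66 and 47.1 and of 30.0 and 55.9 untreated, and of 14.9 and 49.7 and of 15.7 and 55.1 with H2O2.

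The other gene lists had few members. Replication-dependent histones, which are made in S phase, had 3 member regions of 38 (7.89%), all on chromosome 6 and reaching 8 genes because the genes are packed. The region at H2AC15 and H2BC15 ranked 4.81 in untreated siGl3 and 57.7 in untreated siOrc6 cells, and 20.7 and 41.0 with H2O2. The region at H1-1 ranked 29.2 and 55.8 untreated and 16.4 and 40.1 with H2O2, and the region near H3C4 ranked 51.2 and 71.0 untreated and 28.3 and 45.9 with H2O2. In H3C4 the siOrc6 rank with H2O2 was below the untreated siGl3 rank. Actin cytoskeleton and adhesion genes had 6 of 218 (2.75%), among them regions in PALLD, MYH9 (2 members) and VCL, and one within 5 kb of PDLIM7 whose nearest gene is DBN1. Antioxidant genes had 3 of 93 (3.23%), in TXNRD1 (thioredoxin reductase), near PRDX1 inside its neighbour MMACHC, and at PRDX5. Long synaptic genes had 7 of 336 (2.08%), with DLG2, LRP1B, KCNIP4 and ASIC2 first, and common fragile site genes 6 of 255 (2.35%), at DLG2, DAB1, LRP1B and AUTS2. These lists share genes. Collagens and matrix had 3 of 119 (2.52%), at THBS1 and COL4A2. Regions that lost rank in both treatments numbered 0 for histones, with 4.83% over all shared regions. They were 3.67% for actin and adhesion, 2.15% for antioxidant, 5.36% for long synaptic, 5.49% for fragile site and 4.2% for collagen and matrix genes.

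AP-1 and immediate-early genes had 1 of 88 (1.14%), 4.79 kb from FOSL2, an AP-1 subunit gene, with ranks of 6.0 and 58.9 untreated and 34.3 and 76.0 with H2O2. YAP and TEAD targets had 2 of 132 (1.52%), in WWTR1 and TGFB2, and ribosomal protein genes 2 of 140 (1.43%), near RPS16 and at RPS29. The replication fork and ISWI remodeller lists each had the same member, at POLE3, which is in both lists, and chaperones had 1 near HSPB1. Epithelial markers had 1 of 25, in CDH1, and neuronal markers 1 of 84, in SNAP25. Origin recognition and licensing genes had 0 of 51 shared regions, which allows up to 5.88%. Lists at 0 were also mismatch repair (0 of 27, up to 11.1%), base excision repair (0 of 47, up to 6.38%), osteoblast lineage (0 of 66, up to 4.55%), p53 targets (0 of 61, up to 4.92%), interferon response (0 of 39), G2/M (0 of 39, up to 7.69% each) and blood cell markers (0 of 15, up to 20%). The region over ORC6 and its neighbour VPS35 had ranks of 99.6, 99.3, 99.4 and 99.3 in untreated siGl3, untreated siOrc6, siGl3 with H2O2 and siOrc6 with H2O2, and is not a member.

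Members were spread over the chromosomes. Their share of the shared regions was highest on chromosome 13 (41 of 1417, 2.89%, 95% Wilson interval 2.14 to 3.9%) and on X (43 of 1525, 2.82%, 2.1 to 3.78%), and lowest on chromosomes 17 and 22 (1.24% each). Another member lay within 100 kb of 171 members (12.6%). Of the shared regions within 100 kb of a member, 1.82% were members, near the 1.7% over all, and 3.67% had lost rank in both treatments, with 4.83% over all. Around the regions that lost rank, 7.71% of the neighbours had also lost it.

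Only 4 of the 2846 stretches of 1 Mb with a shared region held 5 or more members, and these were picked out after their values were seen. The stretch from 39 to 40 Mb on chromosome 15 held 7 members among 46 shared regions. The pair in THBS1, which encodes the matrix protein thrombospondin-1, an activator of latent TGF-beta, included the largest untreated gain of all members. This region, chr15:39587227-39589240, ranked 6.0 and 78.7 untreated but 13.3 and 35.2 with H2O2. The other in THBS1, chr15:39592417-39592902, ranked 10.8 and 29.1 untreated and 16.9 and 42.1 with H2O2. By −log10 p the first gained 29.9 points untreated and 0.113 with H2O2, and the second -0.243 and 17.5. The other 5 lay 149 to 504 kb from the nearest protein-coding gene, LOC124903470. On chromosome 19, from 27 to 28 Mb, 5 of 13 shared regions were members, in a stretch with 0 protein-coding genes, at least 1343 kb from UQCRFS1, the nearest. They included the member with the highest rank in untreated siGl3 cells, chr19:27859191-27862075, at 81.0 and 99.4 untreated and 32.7 and 97.6 with H2O2, and both higher lists held all 5. The stretch from 13 to 14 Mb on chromosome 18, with 55 shared regions, held the 3 members in LDLRAD4 and 2 near MC2R, the receptor of corticotropin. The stretch from 27 to 28 Mb on chromosome 6 held 5 among 88 shared regions, near PRSS16 (2), POM121L2, H2BC13 and H2AC15.

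The widest members were a 5088 bp region at CPSF1 and ADCK5, a 3825 bp region at C13orf46 and a 3381 bp region at BRAT1. They ranked 69.4 and 91.3, 62.5 and 87.4, and 46.8 and 63.3 untreated. With H2O2 they ranked 78.5 and 95.4, 57.9 and 74.4, and 61.8 and 91.7. Neither higher list held any of the 3. By −log10 p their gains untreated and with H2O2 were 7.53 and 15.2 points at CPSF1, 4.55 and 1.23 at C13orf46, and -5.75 and 0.236 at BRAT1. The member with the lowest rank in untreated siGl3 cells, 206 bp wide and 69.6 kb from TMEM270, ranked 0.204 and 25.3 untreated and 4.9 and 21.4 with H2O2.

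Most members ranked lower with H2O2 than without it under both siRNAs. The rank was lower at 1026 members (75.5%) in siGl3 and at 1080 (79.5%) in siOrc6 cells, with median differences of -9.25 and -8.08 points. For all shared regions the rank was lower at 67.2% and 67.6%, with medians of -2.66 and -2.52 points. Other shared regions of the same rank in untreated siGl3 cells also differed from members: from 0 to 20, with 376 members, the median difference in siGl3 cells was 0.613 points for members and 8.3 for others. From 20 to 40 it was -12.7 and -2.51, and from 40 to 60 it was -16.8 and -5.88. Members were chosen on a low siGl3 rank with H2O2, so this difference in siGl3 cells is tied to the rule. In siOrc6 cells, at the same untreated siOrc6 rank, the medians for members and others were 9.49 and 6.92 from 0 to 20 (5 members). They were 0.12 and -3.85 from 20 to 40, -8.99 and -6.01 from 40 to 60, -10.9 and -4.19 from 60 to 80, and -8.75 and -1.06 from 80 to 100. The siOrc6 ranks are also part of the rule. At promoters most members instead ranked higher with H2O2. There 47 of 76 members (61.8%) ranked higher with H2O2 in siGl3 cells and 46 (60.5%) in siOrc6 cells, with medians of 5.96 and 2.91 points. Away from promoters it was 269 of 1212 (22.2%) and 224 (18.5%). All shared regions at promoters were higher in 61.9% and 54.3%, and those away from promoters in 28.7% and 29.3%, so members followed the split that shared regions showed in general. At SMAD7 the siGl3 rank was 6.09 untreated and 34.1 with H2O2, while the siOrc6 rank was 53.4 and 54.7. Promoter members were in the untreated higher list in 24 of 76 cases (31.6%), against 59.7% of members away from promoters. The H2O2 higher list held 0 of 76, which allows up to 3.95%, against 15.8%. Over all shared regions the untreated list held 8.36% of those at promoters and 6.35% of those away from them, and the H2O2 list 0.159% and 0.773%.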

How the data were processed

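The submitters' processing notes name Bowtie2, Picard, SAMtools, deepTools, Genrich, edgeR, bcl2fastq 2.20 and build hg38, with no role or order. Read shifting, duplicate handling and the peak threshold are not given in the sources used here. Peak signal is a value per peak that the authors deposited, and the −log10 p-value and −log10 q-value beside it are also deposited by the authors. The 4 lists were each made for a whole condition, so no spread between libraries could be given. Ranks were taken over all peaks of a list. Chromosomes other than 1 to 22 and X were left out. A shared base (1 bp) counted as overlap with the deposited lists of changed regions, with RefSeq gene positions and with RefSeq promoter windows (both GRCh38.p14, the assembly of hg38). The promoter table gives starts for 15811 of 19970 protein-coding genes and none on chromosome 8 was used. Gene lists (23 lists, 565 genes, all found in the gene table) and motifs were fixed by hand. The members, the lists and the motifs were chosen with earlier results of these data known.

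Named items were the first 10 members by the smaller gain, the first 10 at a promoter or gene end, the 8 genes with most members, up to 4 genes per list, the 3 widest members, the highest and lowest siGl3 rank, 3 regions on each side of the threshold, and ORC6. Some items that this rule names are left out. Names beyond these, including further genes of a list, were chosen after their values were seen. Sequences are those of some named members at a promoter. The rule and the overlaps were tested on simulated peaks. Alternatives were other ranks, thresholds, merging, windows and overlaps. Scripts ran in Python 3.11.15 with pandas 2.3.3 and numpy 2.4.6, intervals came from scipy 1.17.1, and plots from matplotlib 3.10.9.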

Additional observations from a re-analysis of the deposited data

How the results depend on the processing

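The number of members was 1359, with 3190 at a threshold of 10 points and 556 at 20 points. Ranking among shared regions only gave 2027 members, of which 1076 are in the set described (79.2% of it). The share in the untreated higher list, 58.4%, was 62.4% with ranks among shared regions, 49.4% with the mean of a region's peaks, 45.9% at 10 points and 70.3% at 20 points. The share in the H2O2 higher list, 14.8%, was 12.1% with the mean, 17.6% with ranks by −log10 p, 9.69% at 10 points and 23.7% at 20 points. The share at gene ends, 12.1%, was 20.2% with the mean, 9.15% by −log10 p, 9.18% with peaks up to 500 bp apart joined, 9.59% for regions with 1 peak in each list, 18.6% within 3 kb and 5.9% by promoter overlap. The median width, 630 bp, was 690 bp with ranks among shared regions, 717 bp with the mean, 578 bp by −log10 p, 596 bp at 10 points, 672 bp at 20 points and 587 bp with 1 peak in each list. In each of these settings both shares in the higher lists were above those of all shared regions. Leaving out chromosome X moved none of these values beyond counting error. No paired analysis was possible because each condition has 1 list for both libraries. Depth is unknown, so weak peaks cannot be told from thin sampling.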

Other observations

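Further members at promoters, named after their values were seen, had roles outside the groups above. CMPK2 and RSAD2 are neighbouring, divergent genes, and RSAD2 encodes the interferon-induced antiviral protein viperin. The region over both starts ranked 45.0 in siGl3 and 77.9 in siOrc6 cells untreated, and 58.8 and 81.4 with H2O2, although the interferon list, which does not name these genes, had no member. By −log10 p its gain was only 0.0981 points untreated and 7.37 with H2O2. TSC22D3, a glucocorticoid-induced gene on the X chromosome, had ranks of 33.5 and 51.9 untreated and 45.1 and 69.0 with H2O2. At INSIG1, a regulator of sterol synthesis, they were 48.5 and 74.3 untreated and 61.5 and 77.7 with H2O2. NHSL3 had one of the weakest siGl3 peaks untreated, at 5.65, but ranked 60.3 in siGl3 cells with H2O2, above its untreated siOrc6 rank of 32.0, and reached 78.0 in siOrc6 cells with H2O2. Starts of long noncoding RNAs were overlapped by 40 of 1288 members (3.11%), against 4.38% of all shared regions.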
